A study of Arabidopsis thaliana with 48 samples.

Results

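The genes described are the nuclear genes for the small subunit of Rubisco, Rubisco activase and 5 other enzyme genes of the Calvin-Benson cycle in Arabidopsis thaliana seedlings. They were taken by locus identifier from the deposited gene counts, with the longest transcript model standing for each gene, and make up 10 of 32678 genes. All 10 passed the filter on low counts and were among the 22586 genes tested. Their symbols and loci are RBCS1A (AT1G67090), RBCS1B (AT5G38430), RBCS2B (AT5G38420), RBCS3B (AT5G38410), RCA (AT2G39730), GAPA1 (AT3G26650), GAPA2 (AT1G12900), GAPB (AT1G42970), PRK (AT1G32060) and SBPASE (AT3G55800). Whole seedlings of the wild type and of a snrk1a1/a2 mutant were profiled by RNA-seq in 14 groups of 3 libraries. Each genotype was sampled in the dark at 3, 4 and 5 days after germination, in the light at 4 and 5 days, and with glucose at 4 days in the dark and in the light; all other groups had no added sugar named. The sample titles tag the mutant libraries kd and do not explain the tag. The labels say nothing else of how the mutant was made. They give no light regime, no glucose dose and no word on separate cultures. The p-values therefore measure the spread between these libraries, which may be technical.

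Rubisco fixes CO2 onto ribulose bisphosphate in the chloroplast stroma. It is built from large subunits encoded in the chloroplast and small subunits encoded by the nuclear RBCS genes, so both genomes supply the same enzyme. Rubisco activase uses ATP to clear inhibitory sugar phosphates from its active sites. Chloroplast glyceraldehyde-3-phosphate dehydrogenase, made of A subunits (GAPA1, GAPA2) and a B subunit (GAPB), carries out the reducing step. Phosphoribulokinase (PRK) and sedoheptulose bisphosphatase (SBPASE) act in the regeneration of the CO2 acceptor. These genes are classic light-induced genes of green tissue, and sugars are known to repress several of them. SnRK1 is a protein kinase that responds to low energy, and KIN10 (AT3G01090) and KIN11 (AT3G29160) encode its catalytic subunits, the proteins named in the mutant's label.

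RBCS1A lies alone on chromosome 1 (chr1:25048158-25049424, minus strand), while the 3 B genes lie in a row on the minus strand of chromosome 5 within 8075 bases (chr5:15377173-15385247), all by TAIR10 coordinates. Over the aligned coding bases the B genes were 96.7% to 97.3% identical to each other and 90.4% to 90.6% identical to RBCS1A. GAPA1 (chr3:9795071-9797045) and GAPA2 (chr1:4392450-4394400) were 85.8% identical, and their coding sequences matched GAPB (chr1:16127381-16129843) at 73.4% and 71.9%. RCA (chr2:16570746-16573519), PRK (chr1:11532533-11534639) and SBPASE (chr3:20709386-20711640) are single loci here. The 135 coding bases of the second exon of RBCS1A, with the matching exon bases of the B genes, show how alike the copies are and are printed for that reason, from the RefSeq TAIR10.1 genome, 5′ to 3′ on the coding strand. Capitals mark bases that differ from RBCS1A.
RBCS1A: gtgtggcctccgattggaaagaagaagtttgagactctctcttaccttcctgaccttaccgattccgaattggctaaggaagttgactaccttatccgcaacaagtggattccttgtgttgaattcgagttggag
RBCS1B: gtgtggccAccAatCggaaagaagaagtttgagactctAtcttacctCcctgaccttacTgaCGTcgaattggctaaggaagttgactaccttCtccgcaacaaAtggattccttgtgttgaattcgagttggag
RBCS2B: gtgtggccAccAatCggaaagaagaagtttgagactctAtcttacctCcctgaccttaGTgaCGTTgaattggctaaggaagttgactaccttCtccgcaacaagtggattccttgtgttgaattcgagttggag
RBCS3B: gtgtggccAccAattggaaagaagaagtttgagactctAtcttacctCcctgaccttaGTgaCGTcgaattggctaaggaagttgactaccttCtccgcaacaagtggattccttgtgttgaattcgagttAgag
The printed bases lie at chr1:25048838-25048972, chr5:15384761-15384895, chr5:15381583-15381717 and chr5:15377911-15378045, in the order printed. RBCS1B, RBCS2B and RBCS3B differed from RBCS1A at 11, 12 and 11 of the 135 bases, and from each other at 3 or 4. Of all 50-base words in the counted models, 66.4% of those in RBCS1B, 76.6% in RBCS2B, 78.0% in RBCS3B and 98.2% in RBCS1A were found in no other gene, against 100% in the other 6 genes. Short reads can therefore be split uncertainly among the B genes, and the change in the sum of the 3 B genes is given where its call differed from that of a B gene described.

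A pair of promoter motifs known from light-regulated plant genes were searched on both strands in the 250 bases before the start of each counted model. The G-box (CACGTG) was present in 4 of the 10 genes and in 6.83% of 32398 nuclear genes. The I-box (GATAAG) was present in 5 of the 10, the small-subunit genes and GAPA1, and in 13.1% of all. No G-box and I-box match overlapped. Each G-box is shown in 30 bases, with the motif in capitals, because the genes with and without a G-box are compared in the light below. An I-box is shown for RBCS1B and GAPA1, which had no G-box in this window, and the GATAAG of RBCS1B is overlapped in the last base by a second one. The I-boxes of the other small-subunit genes are not marked, and the RBCS2B and RBCS3B windows each hold one on the other strand, in lower case, 151 and 99 bases before the model start.
RBCS1A G-box, chr1:25049491-25049520, strand -: ggaattatcttcCACGTGgcattattccag
RBCS2B G-box, chr5:15382177-15382206, strand -: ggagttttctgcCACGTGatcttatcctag
RBCS3B G-box, chr5:15378506-15378535, strand -: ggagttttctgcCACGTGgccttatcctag
RCA G-box, chr2:16573579-16573608, strand -: ataaacatattcCACGTGgaccaatcaaaa
RBCS1B I-box, chr5:15385308-15385337, strand -: tcacaaaagaaaGATAAGataagggtgtca
GAPA1 I-box, chr3:9794916-9794945, strand +: atggagagcagcCTTATCctccttttataa
The first bases of these motifs lie 84, 159, 107, 77, 78 and 143 bases before the model start. A match of letters describes the sequence and shows no binding.

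Library totals ran from 4956025 to 26126836 counts. Same-numbered 3 d dark columns of both title series differed by about the counting noise and were counted as 1 library. Levels below are normalized CPM, where CPM divides a gene's count by the library's total and the totals are first corrected by TMM (a trimmed-mean scaling across libraries), and fold changes are log2 values ± SE from edgeR's quasi-likelihood test with Benjamini-Hochberg adjustment over all tested genes; a gene is called at an adjusted p below 0.05. KIN10, checked first as a gene the mutant's label names, was not called lower in any comparison of the libraries labelled snrk1a1/a2, called the mutant below, with the wild type, and was called higher in 4 d light (1.24 ± 0.40, adjusted p = 0.00905) and 5 d light (1.71 ± 0.40, adjusted p = 0.000528). It lay between 71.1 and 256 in the wild type and between 81.0 and 198 in the mutant, apart from 3 mutant libraries. Without those 3 the light differences were 0.20 and 0.35 and not called. Those 3 were 4 d light library 1 and 5 d light libraries 1 and 3, as KIN10 read 542, 123 and 149 in mutant 4 d light and 614, 174 and 589 in mutant 5 d light. KIN11 was called lower in the mutant at 4 d in the dark (-0.47 ± 0.17, adjusted p = 0.0205) and in the light with glucose (-1.01 ± 0.18, adjusted p = 0.000542). The labels do not place the lesions, so the genotype label could not be checked by these counts. PORA, a dark-expressed chlorophyll synthesis gene, read 38.8 to 86.2 in wild-type light libraries without glucose and 309, 52.3 and 84.3 and 405, 54.7 and 431 in mutant 4 d and 5 d light, high in the same 3 libraries. In the dark with glucose the libraries labelled number 2 stood with the other genotype on the first principal component of all genes (38.8% of variance), the wild-type one at 20.3 beside mutant 10.3 and 12.2, the mutant one at -36.4 beside wild-type -36.6 and -43.2. The main results that rest on these 5 libraries are also given without them. All glucose libraries carry a title series that, without glucose, holds only 3 d dark libraries, so glucose and title series cannot be told apart.

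RBCS1A had the highest level per kilobase of counted model in all 14 groups, and SBPASE the lowest. In wild-type 4 d light RBCS1A stood at 14916 ± 1705 normalized CPM per kb (SD, n = 3). RBCS3B followed at 5882 ± 624 and RCA at 3933 ± 360.1 per kb. Each of these lay apart from the next in every library. GAPA1 (2008 ± 384 per kb) overlapped RBCS2B (1849 ± 161), and GAPA2 (1518 ± 97.6), RBCS1B (1474 ± 96.2) and GAPB (1233 ± 134) formed another run in which neighbours overlapped. PRK (910.2 ± 114 per kb) and SBPASE (346 ± 36.6) came last. In wild-type 4 d dark the order differed at the small-subunit genes: RBCS2B stood at rank 3 with 2241 ± 133 per kb and RBCS1B at rank 9 with 185 ± 21.4. In mutant 5 d light every gene below RBCS1A overlapped its neighbour in the order.

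Every member had its lowest group mean in mutant 5 d dark. The highest mean was in wild-type light for 9 of them and in wild-type 3 d dark for RBCS2B, at 2295 ± 401 normalized CPM. The highest mean was 11 times the lowest for SBPASE and 34.4 times for GAPA2, the ends of the range. Together the 10 genes took 3.48% ± 0.297 of all counts in wild-type 4 d light and 1.66% ± 0.0408 in wild-type 4 d dark. In the mutant they took 0.672% ± 0.140 and 0.538% ± 0.0633 in the same conditions, and 0.286% ± 0.154 in 5 d dark.

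**Figure D1:**
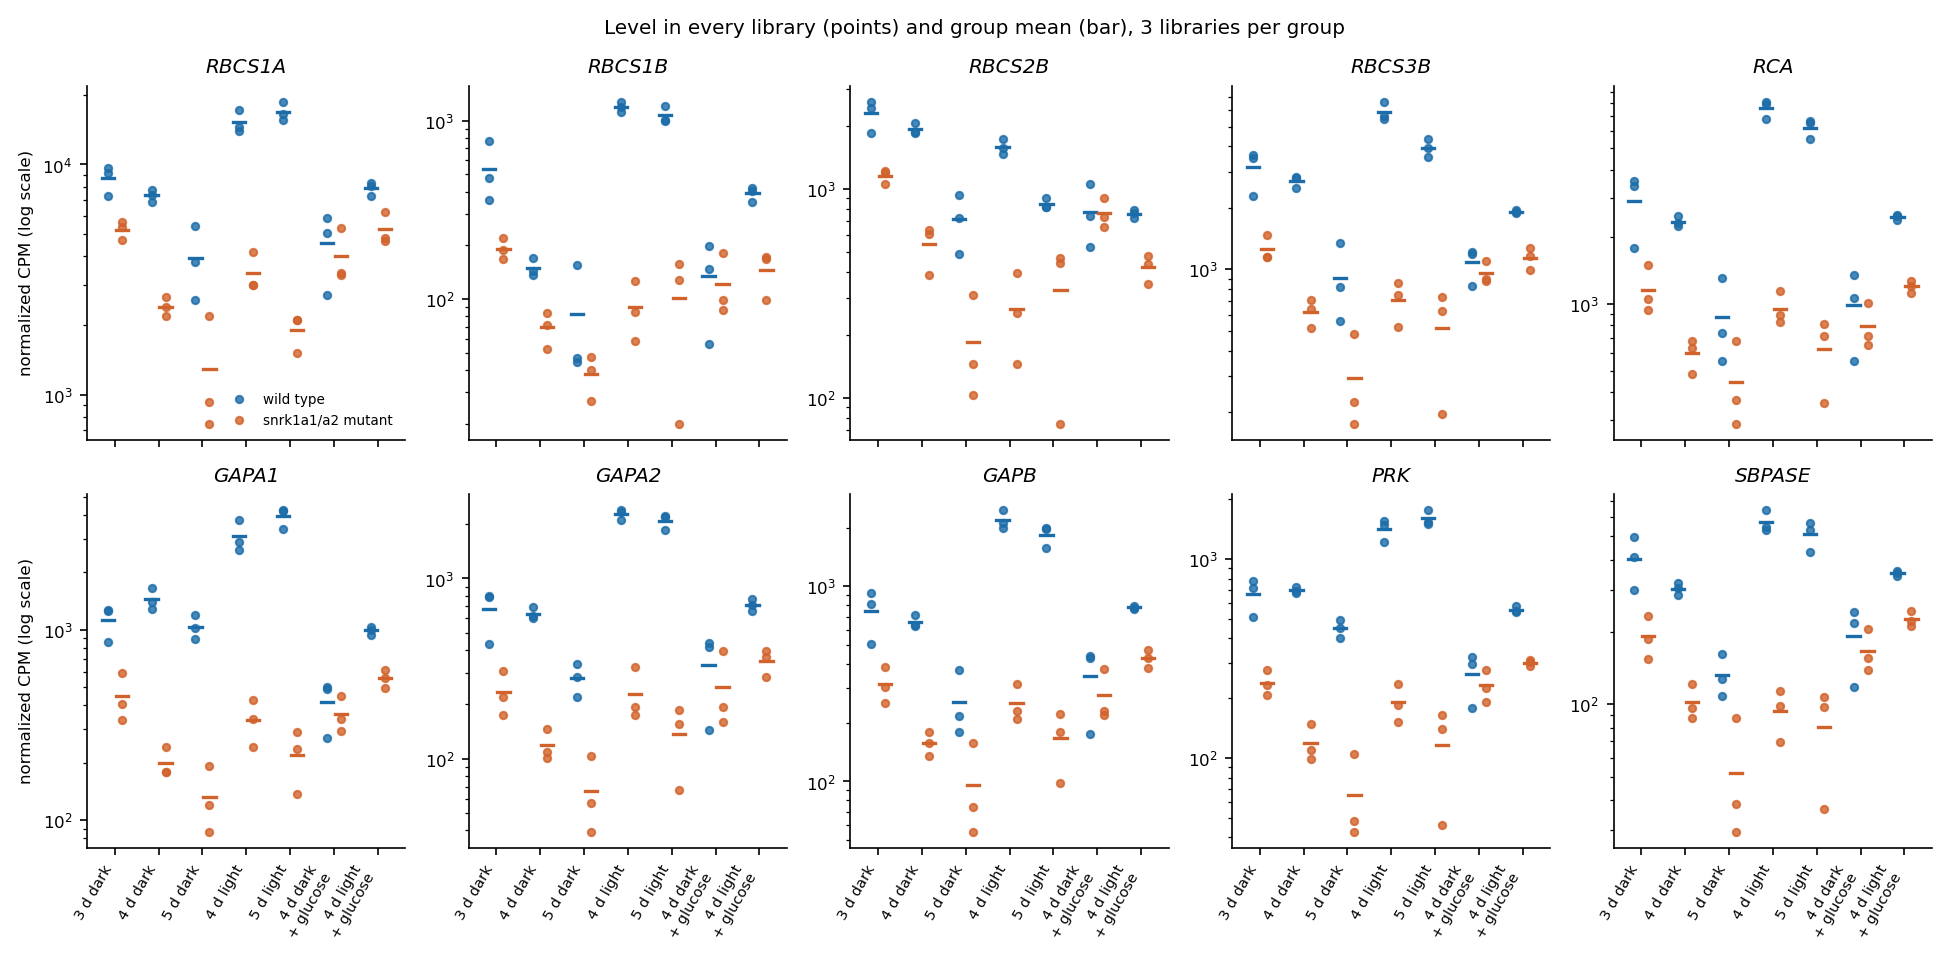
Normalized CPM (log axis) of the 10 genes in every library (points) with the group mean (bar), wild type in blue and mutant in orange, 3 libraries per group. The genotypes are apart in both light groups without glucose in all 10 panels, and RBCS2B alone has its highest wild-type mean in 3 d dark, at 2295.

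The makeup of the small-subunit transcripts changed with light. Levels per kb use the whole model length, and fewer words were unique in the B genes than in RBCS1A. The shares and ranks of B genes against RBCS1A are therefore uncertain. Of the summed level per kb of the 4 RBCS genes, RBCS2B made up 18.2% ± 0.529 in wild-type 4 d dark and 7.68% ± 0.198 in 4 d light, and 14.9% ± 0.965 and 4.32% ± 0.186 at 5 d. RBCS1B went the other way, at 1.51% ± 0.262 in 4 d dark and 6.15% ± 0.659 in 4 d light, and 1.67% ± 0.70 and 5.81% ± 0.233 at 5 d (SD, n = 3). No dark and light library overlapped for either gene, and each exact two-sided permutation p was 0.1, the smallest that 3 against 3 can give. With glucose the wild-type share of RBCS2B was 13.9% ± 2.87 in the dark (10.7%, 14.6% and 16.3% in libraries 1, 2 and 3) and 8.06% ± 0.198 in the light. In the mutant RBCS2B made up 17% ± 3.49 in 4 d dark and 6.95% ± 3.31 in 4 d light, while at 5 d it held 11.9% ± 0.559 and 11.9% ± 6.07. The 3 mutant light libraries with high KIN10 had RBCS2B shares of 10.7%, 15.4% and 15.3%, against 4.57%, 5.57% and 4.85% in the other mutant light libraries without glucose. Between genotypes in 4 d light, RBCS1B held 2.53% ± 0.990 in the mutant and RBCS3B 16.0% ± 1.66, against 24.4% ± 0.0977 for RBCS3B in the wild type (exact permutation p = 0.1 for both). At 5 d in the light the RBCS3B shares overlapped, with means of 16.8% in the mutant and 17.3% in the wild type (exact permutation p = 1.0), and RBCS1B held 3.85% and 5.81% (exact permutation p = 0.1).

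**Figure D2:**
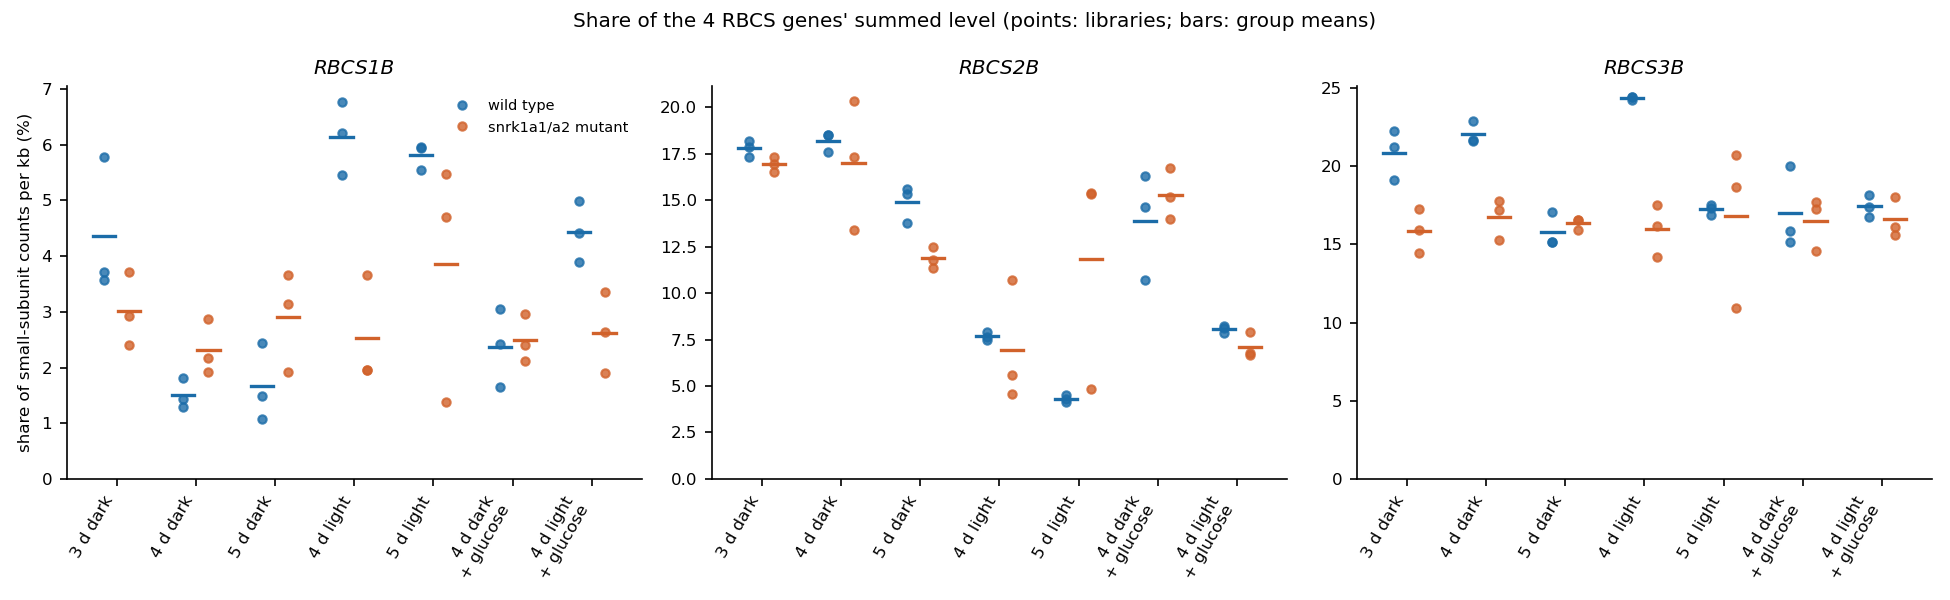
Share of RBCS1B, RBCS2B and RBCS3B in the summed level per kb of the 4 small-subunit genes (%), per library (points) with group means (bars), wild type in blue and mutant in orange. In the wild type the RBCS2B share is 18.2% in 4 d dark and 7.68% in 4 d light, and the RBCS1B share 1.51% and 6.15%.

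In the dark without glucose, the small-subunit and Calvin-cycle genes were lower in the mutant at every age. At 3 d, 8 of the 10 were called lower, where 14.3% of all tested genes were. At 4 d, 9 of 10 were called lower (all genes, 28.5%), and at 5 d again 9 of 10 (31.4%). None was called higher, and the median log2 change of the 10 was -1.33, -2.01 and -1.61, against 0.01, 0.01 and -0.04 over all tested genes. With library totals left unscaled the shares called lower among all genes were 9.57%, 19.4% and 24.0%, and higher 22.7%, 38.0% and 37.2%. Without overlap between the genotypes, all 10 lay lower at 3 d and 4 d and 8 at 5 d, as 23.9%, 34.1% and 32.9% of all genes did. In whole seedlings, fewer cells of a type and less RNA per cell cannot be told apart.

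GAPA1, an A subunit of the dehydrogenase, changed most at 4 d and 5 d. It read 1396, 1283 and 1664 normalized CPM in the wild-type 4 d dark libraries and 241, 179.6 and 179 in the mutant, a change of -2.86 ± 0.29 (adjusted p = 1.62e-09). At 5 d it read 1187, 897 and 1023 and 192, 86.4 and 119 (-2.97 ± 0.30, adjusted p = 4.47e-10), and at 3 d 858, 1269 and 1255 and 336, 595 and 407 (-1.34 ± 0.28, adjusted p = 0.000422). The genotypes did not overlap at any of the 3 ages. PRK, the last step of the cycle before Rubisco, read 678, 697 and 729 in the wild type and 149, 99.1 and 109.6 in the mutant at 4 d (-2.55 ± 0.32, adjusted p = 3.82e-08). Its change was -1.48 ± 0.30 at 3 d and -2.79 ± 0.32 at 5 d, both called. GAPA2 changed by -1.54 ± 0.38, -2.43 ± 0.39 and -2.08 ± 0.39 over the 3 ages, GAPB, the B subunit, by -1.25 ± 0.33, -2.06 ± 0.34 and -1.42 ± 0.34, and SBPASE by -1.07 ± 0.31, -1.57 ± 0.32 and -1.36 ± 0.32. All 9 of these values passed the test. SBPASE at 3 d was no longer called without mutant library 1 (-0.93, adjusted p = 0.0616), nor without library 3 of the wild type (-0.88, adjusted p = 0.0565).

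RBCS1A, the most abundant small-subunit transcript, read 7402, 6891 and 7767 in wild-type 4 d dark and 2654, 2188 and 2397 in the mutant (-1.61 ± 0.30, adjusted p = 2.81e-05). The 5 d values were 5380.0, 2565 and 3769 and 2196, 746 and 931 (-1.60 ± 0.30, adjusted p = 2.67e-05). At both ages every mutant library lay below every wild-type one. At 3 d RBCS1A (-0.74 ± 0.29, adjusted p = 0.0523) and RBCS2B (-0.99 ± 0.40, adjusted p = 0.0575) missed the threshold. In a fit to these 6 libraries alone they were -0.74 (adjusted p = 0.0297) and -0.99 (adjusted p = 0.00616). The same fit with the replicate number as a block gave -0.73 (adjusted p = 0.0109) and -0.98 (adjusted p = 0.0037). All 10 genes were called in both, but the shares of all genes in those fits are not given here. RBCS2B was called at 4 d (-1.83 ± 0.41) and 5 d (-1.94 ± 0.41), and RBCS3B at 3 d (-1.32 ± 0.34), 4 d (-2.13 ± 0.34) and 5 d (-1.62 ± 0.34). RBCS1B was called at 3 d (-1.48 ± 0.49), where the call was lost without mutant library 1 (-1.47, adjusted p = 0.0666) or 2 (-1.39, adjusted p = 0.0688), and without library 3 of the wild type (-1.13, adjusted p = 0.116). It missed the threshold at 4 d (-1.11 ± 0.49, adjusted p = 0.0517) and 5 d (-1.11 ± 0.49, adjusted p = 0.052). RBCS1B was low in both genotypes at 4 d in the dark, 144, 169 and 136 against 71.6, 83.7 and 52.4. The 3 B genes summed changed by -1.20, -1.96 and -1.72 over the 3 ages, called at each.

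RCA, Rubisco activase, read 2470.2, 2234 and 2319 in wild-type 4 d dark and 681, 484 and 630.0 in the mutant (-1.97 ± 0.33, adjusted p = 6.08e-06), and it was also called at 3 d (-1.33 ± 0.32). At 5 d the libraries read 1311, 554 and 739.7 and 678, 288 and 371, so the genotypes overlapped. That change (-0.96 ± 0.32, adjusted p = 0.0104) lost its call without mutant library 2 (-0.73, adjusted p = 0.0809) or 3 (-0.84, adjusted p = 0.0517), and without library 1 of the wild type (-0.54, adjusted p = 0.17). Shoot apex and epidermis markers and root markers were read beside these results. The shoot list has 10 genes, 8 of them tested. At 3, 4 and 5 d, 4, 7 and 7 were called lower (all genes, 14.3%, 28.5% and 31.4%). Their summed level was 679 to 929 in mutant and 1147 to 1311 in wild-type 3 d dark, 320.4 to 462 and 868 to 951 at 4 d, and 198 to 338 and 595 to 707 at 5 d, with GL1 at 0 in wild-type 5 d dark. Of 10 root markers, 2, 6 and 6 were called lower, to be set against the same shares of all genes. The root marker sum was also lower, at 3093 to 3433 in mutant and 5136 to 6255 in wild-type 3 d dark. It was 1726 to 2373 and 3276 to 4395 at 4 d, and 1322 to 2191 and 3060 to 4520 at 5 d. The part of cell makeup in the results was not tested.

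In the light without glucose all 10 genes were called lower in the mutant at both ages. Of all tested genes 25.2% were called lower at 4 d and 26.4% at 5 d, or 16.2% and 16.1% with library totals unscaled, where 39.3% and 50.3% were called higher against 28.8% and 33.4% with scaling. The median of the 10 was -3.02 at 4 d and -3.36 at 5 d, against 0.04 and 0.19 over all genes. Every mutant library lay below every wild-type library for each of the 10 at both ages, as 27.6% and 26.3% of all genes did. All 10 were also called at both ages with any single library left out.

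Among the small-subunit genes, RBCS1A read 17288, 14049 and 14532 normalized CPM in wild-type 4 d light and 2980.1, 2993 and 4153 in the mutant (-2.18 ± 0.31, adjusted p = 3.84e-07). At 5 d the values were 16593, 15669 and 18673 and 2103, 1522 and 2119 (-3.15 ± 0.32, adjusted p = 3.98e-10). The highest mutant level was thus far under the lowest wild-type level. RBCS1B read 1188, 1114 and 1269.8 in the wild type and 127, 58.2 and 84.0 in the mutant at 4 d, a change of -3.73 ± 0.54 (adjusted p = 8.07e-07), the lowest value of the 10 at that age. RBCS3B fell by 3.05 on the log2 scale at 4 d and by 2.93 at 5 d. RBCS2B read 822, 820.0 and 899 in the wild type and 444, 74.9 and 467 in the mutant at 5 d (-1.37 ± 0.41, adjusted p = 0.00444). Mutant libraries 1 and 3, those with high KIN10, lay far above library 2. Without the 3 libraries with high KIN10, which leaves 1 mutant library at 5 d that is assumed to vary like the other groups, RBCS2B changed by -3.46 (adjusted p = 5.05e-07) and RBCS1B by -5.71 (adjusted p = 6.85e-07), from -3.41 ± 0.53. At 4 d the same omission gave -3.05 for RBCS2B, against -2.59 ± 0.42.

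RCA read 8071, 6788 and 7889 in the wild type and 888, 829 and 1138 in the mutant at 4 d (-2.99 ± 0.34, adjusted p = 1.09e-08), and changed by -3.30 ± 0.35 at 5 d. GAPA1 read 4235, 3369 and 4227 and 237, 137 and 289 at 5 d (-4.16 ± 0.31, adjusted p = 7.91e-13), the largest change of any member in any of the 7 genotype comparisons. Its 4 d change was -3.21 ± 0.30. GAPA2 changed by -3.31 ± 0.40 and -3.94 ± 0.42, and GAPB by -3.12 ± 0.36 and -3.47 ± 0.36, at 4 d and 5 d. PRK read 1547, 1511 and 1762 and 140.1, 46.3 and 164 at 5 d (-3.78 ± 0.33, adjusted p = 2.30e-11). SBPASE changed by -2.61 ± 0.33 and -2.66 ± 0.33. Without the libraries with high KIN10, which leaves 1 mutant library at 5 d, the 5 d change was -4.81 for GAPA1, -4.93 for GAPA2 and -4.19 for GAPB. It was -4.07 for RCA, -5.08 for PRK, -3.76 for SBPASE and -4.29 for RBCS3B. Shoot marker sums were 271 to 431 in mutant and 599.6 to 680 in wild-type 4 d light, and 208 to 358 and 377 to 438 at 5 d. Of the 8 tested shoot markers 5 and 6 were called lower (all genes, 25.2% and 26.4%). Of the 10 root markers 3 and 2 were, near those shares of all genes. At 5 d, 3 root markers and 1 shoot marker were called higher in the mutant, no larger a share than the 33.4% of all genes. The root marker sum there ran from 1243 to 5466. The part of these markers in the results was not tested.

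**Figure D3:**
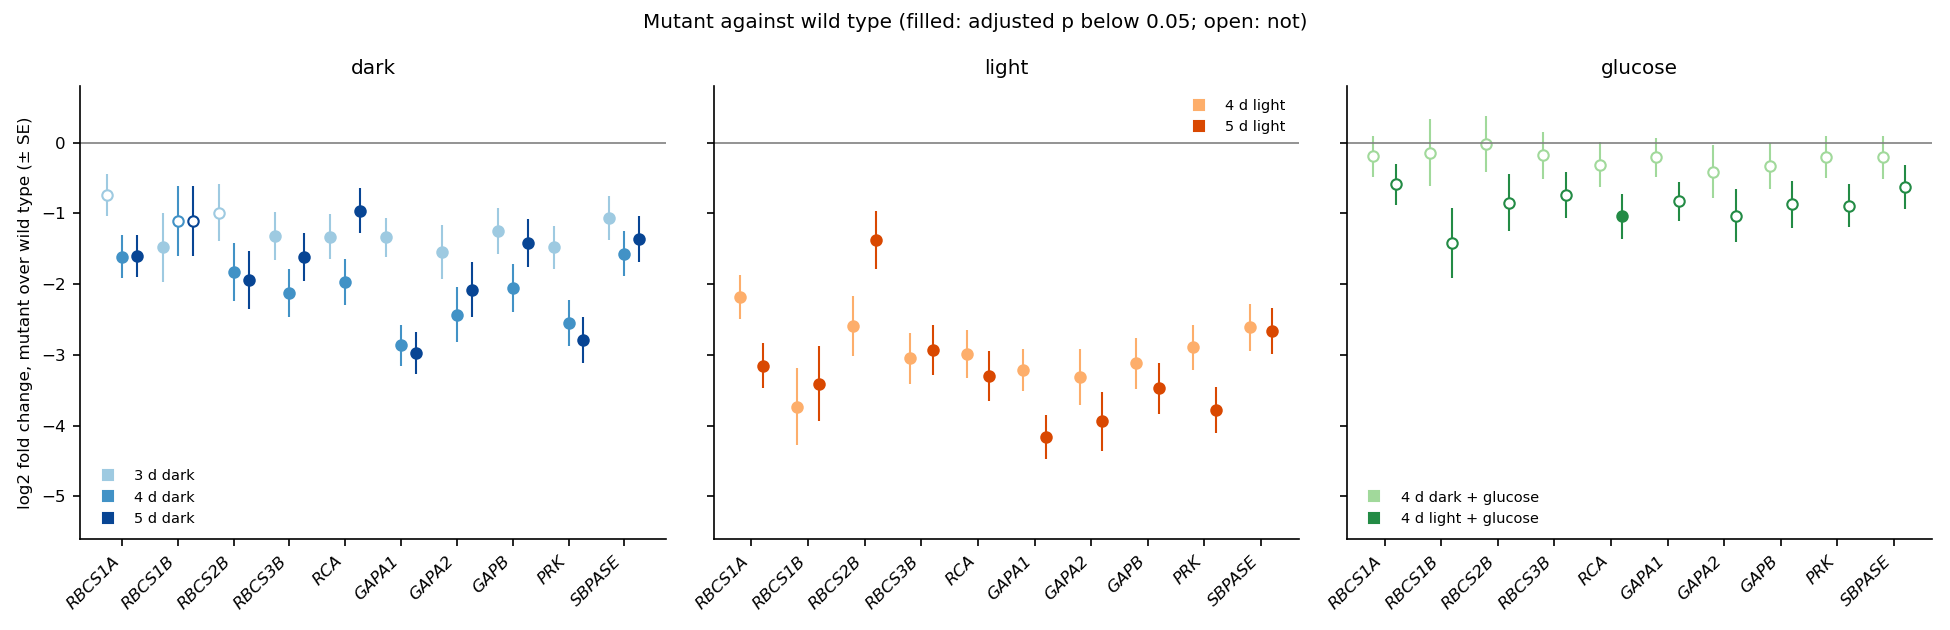
Log2 fold change of the mutant over the wild type (± SE) for the 10 genes in the dark, in the light and with glucose; filled points have an adjusted p below 0.05. Values lie between -0.74 and -2.97 in the dark, between -1.37 and -4.16 in the light, and between -0.02 and -1.42 with glucose.

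In the wild type, light raised 9 of the 10 genes at 4 d and 9 at 5 d, where 14.4% and 16.5% of all tested genes were called higher (11.5% and 11.6% with library totals unscaled). These 9 lay higher in the light without overlap at both ages, as 23.6% and 22.1% of all genes did. The exception was RBCS2B at both ages. It read 1881, 1846 and 2060.1 in the dark and 1738, 1463 and 1576 in the light at 4 d (-0.28 ± 0.40, adjusted p = 0.656), and 935, 485 and 723 and 822, 820.0 and 899 at 5 d (0.25 ± 0.40, adjusted p = 0.666). RBCS1B had the largest response, from 144, 169 and 136 in the dark to 1188, 1114 and 1269.8 in the light at 4 d (2.99 ± 0.52, adjusted p = 6.02e-05). Its 5 d change was 3.71 ± 0.54 (adjusted p = 1.99e-06). These neighbouring B genes thus lay at the ends of the range of the 10, while their sum with RBCS3B changed by 0.85 (4 d, adjusted p = 0.0696) and by 1.78 (5 d, adjusted p = 0.000204). The genes with a G-box within 250 bases were RBCS2B and RBCS1A (1.06 ± 0.30 at 4 d), RBCS3B (1.11 ± 0.33) and RCA (1.70 ± 0.33), and RBCS1B had none, so responses of genes with the motif (-0.28 to 1.70) and without it (0.92 to 2.99) overlapped.

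RCA read 2470.2, 2234 and 2319 in wild-type 4 d dark and 8071, 6788 and 7889 in the light. GAPA2 rose by 1.83 ± 0.38 at 4 d and 2.90 ± 0.40 at 5 d, and GAPB by 1.74 ± 0.34 and 2.84 ± 0.35. GAPA1 (1.1 ± 0.28), PRK (1.01 ± 0.30) and SBPASE (0.92 ± 0.31) rose least among those called at 4 d. SBPASE lost its 4 d call without dark library 1 (0.96, adjusted p = 0.0595), 2 (0.92, adjusted p = 0.0647) or 3 (0.87, adjusted p = 0.0857), or without light library 1 (0.83, adjusted p = 0.0837) or 3 (0.95, adjusted p = 0.0516). At 5 d RCA rose by 2.83 ± 0.34, RBCS1A by 2.12 ± 0.30, RBCS3B by 2.12 ± 0.34, SBPASE by 1.94 ± 0.32, GAPA1 by 1.93 ± 0.28 and PRK by 1.83 ± 0.31. With glucose, 5 genes were called higher in the wild type (all genes, 4.35%), led by RBCS1B (1.55 ± 0.49), RCA (1.32 ± 0.32) and GAPA1 (1.24 ± 0.28), with GAPB (1.17 ± 0.33) and PRK (1.07 ± 0.30). The sum of the B genes was not called there (0.62, adjusted p = 0.358). Without the wild-type dark library labelled number 2 only GAPA1 was called, and 2 genes were called without any 1 of the light libraries 1, 2 and 3.

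In the mutant, no member was called between light and dark by edgeR at 4 d, at 5 d or with glucose, where 1.62%, 6.8% and 0.956% of all genes were called higher. At an unadjusted p below 0.05, in either direction, the counts were 6, 7 and 2 members, and DESeq2 called 0, 4 and 0. Of all 22586 tested genes 2077, 4020 and 1633 were higher and 1568, 2747 and 1331 lower at that cutoff. DESeq2 called 562, 2264 and 363 of all genes higher and 309, 1234 and 187 lower. GAPA2 had the highest 4 d value (0.95 ± 0.37, adjusted p = 0.187). RBCS2B had the lowest with library totals unscaled (-1.10, adjusted p = 0.15). RBCS1A read 2654, 2188 and 2397 in the dark and 2980.1, 2993 and 4153 in the light, without overlap. At 5 d, RBCS1B changed by 1.41 ± 0.50 (adjusted p = 0.0595), from 47.4, 26.8 and 40.0 to 127, 19.9 and 157, with light library 2 below all dark ones. Without mutant 5 d dark library 1, or without mutant 5 d light library 2, 8 members were called. Without the libraries with high KIN10, which leaves 1 mutant light library at 5 d, the 5 d changes ran from -1.25 (RBCS2B) to 0.30 (RBCS1A). At 4 d RBCS2B was called lower without them, at -1.45 (adjusted p = 0.0057). With glucose, and without both dark libraries labelled number 2, the values ran from -0.72 (RBCS2B) to 0.98 (GAPA2), none called.

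The difference between the genotypes in the light response was tested as an interaction. At 4 d, 1 gene was called, RBCS1B (-2.62 ± 0.69, adjusted p = 0.0177; all genes called lower, 4.37%), and it was called with any library left out. The other 9 ran from -1.06 (GAPB) to -0.33 (PRK). At 5 d, 8 were called lower (11.2% of all genes, 6.8% with library totals unscaled, where 22.7% were called higher against 16.2%), led by RCA (-2.34 ± 0.46, adjusted p = 0.000306), RBCS1B (-2.30 ± 0.70) and GAPB (-2.05 ± 0.47). PRK (-0.99 ± 0.42, adjusted p = 0.0794) and RBCS2B (0.58 ± 0.56, adjusted p = 0.477) were not. With library totals unscaled, SBPASE (-1.07, adjusted p = 0.0563) and RBCS3B (-1.08, adjusted p = 0.0693) also lost their calls. Leaving out wild-type 5 d dark library 2 gave 5 calls, mutant 5 d dark library 1 gave 4 and mutant 5 d light library 2 gave 5. Leaving out the libraries with high KIN10 leaves 1 mutant library in 5 d light, with no spread of its own. The values were then -1.57 for RBCS2B, -4.67 for RBCS1B and -2.34 for PRK. The sum of the B genes was called at neither age (-1.06, adjusted p = 0.172, and -0.91, adjusted p = 0.174). With glucose none was called by edgeR (0.0531% of all genes), with 0 members at an unadjusted p below 0.05 and 0 by DESeq2. RBCS1B had the lowest value there (-1.28 ± 0.68, adjusted p = 0.612). Without both dark glucose libraries labelled number 2 it was -0.52, and GAPA2 (0.24), RBCS1A (0.11), GAPB (0.08) and SBPASE (0.01), all below 0 with them, lay above 0, none called.

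**Figure D4:**
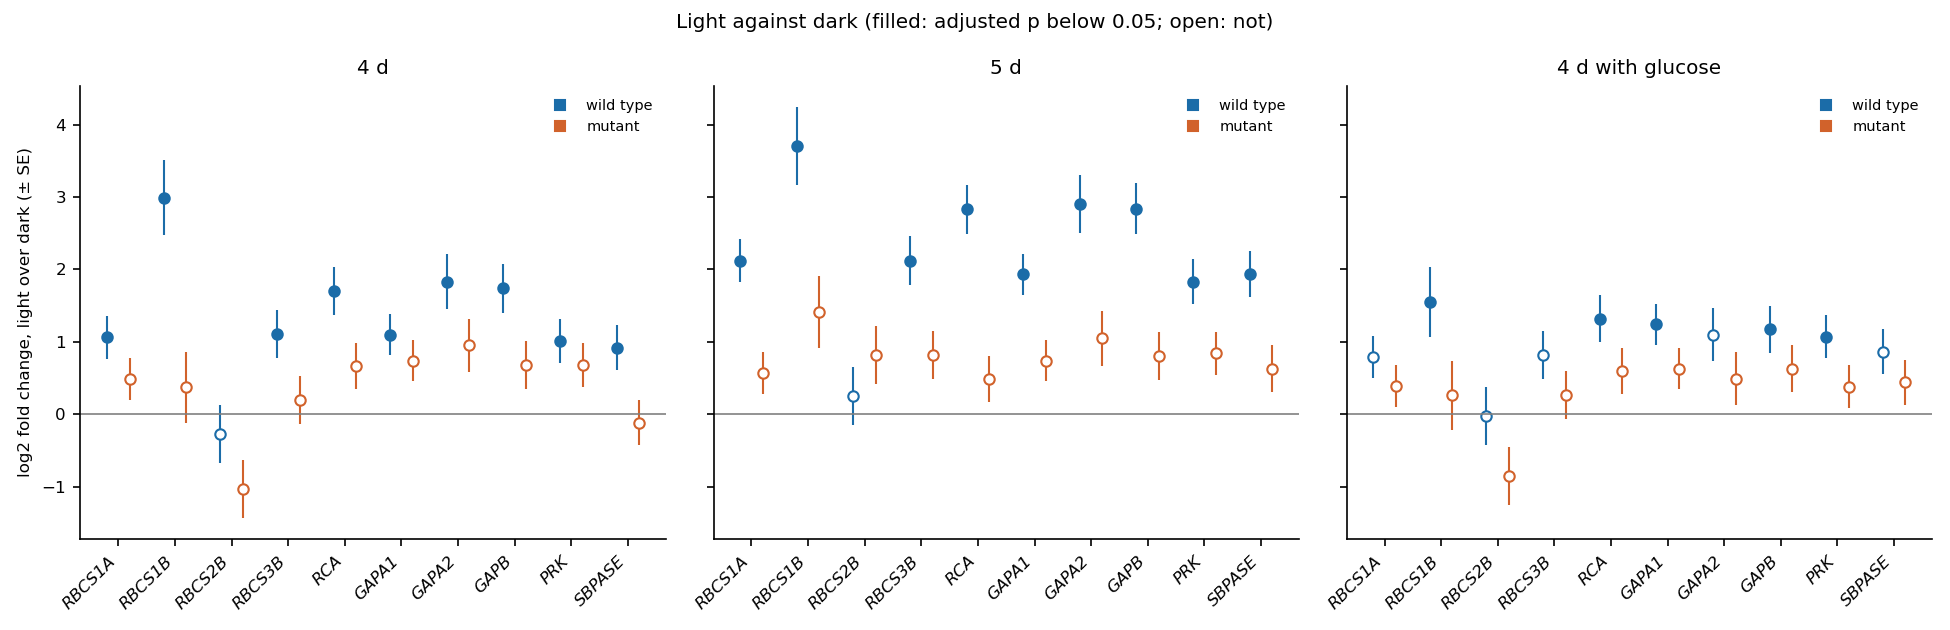
Log2 fold change of light over dark (± SE) for the 10 genes at 4 d, at 5 d and at 4 d with glucose, wild type in blue and mutant in orange; filled points have an adjusted p below 0.05. Wild-type points for 9 genes are filled at 4 d and 5 d, RBCS2B is open throughout, and no mutant point is filled.

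In the dark the levels also changed with age. From 3 d to 4 d the wild type changed in 1 member, RBCS1B (all genes called lower, 12%), which read 358, 479 and 766 at 3 d and 144, 169 and 136 at 4 d (-1.84 ± 0.50, adjusted p = 0.00687). Without wild-type 3 d library 3, its highest, the change was -1.49 (adjusted p = 0.0579), and the sum of the B genes was not called (-0.32, adjusted p = 0.556). In the mutant 9 members fell over the same day (12.7% of all genes), among them RBCS1A (-1.11 ± 0.30), GAPA1 (-1.16 ± 0.28) and RBCS1B (-1.47 ± 0.49), while GAPA2 missed the threshold (-0.97 ± 0.37, adjusted p = 0.0539). RBCS1A read 5337, 5597 and 4718 at 3 d and 2654, 2188 and 2397 at 4 d, without overlap. Leaving out mutant 3 d library 2 or 3, or 4 d library 2 or 3, left 3, 5, 3 and 2 calls. The difference between the genotypes passed the test for GAPA1 only (-1.52 ± 0.39, adjusted p = 0.0135; all genes called lower, 5.13%), which changed by 0.36 ± 0.27 in the wild type, and not without mutant 3 d library 2 (-1.25, adjusted p = 0.0616).

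From 4 d to 5 d in the dark 7 members fell in the wild type (4.51% of all genes). RBCS3B (-1.59 ± 0.34), RCA (-1.43 ± 0.33), RBCS2B (-1.43 ± 0.41) and GAPB (-1.35 ± 0.34) had the largest changes, while PRK (-0.64 ± 0.30), GAPA1 (-0.48 ± 0.28) and RBCS1B (-0.87 ± 0.49) were not called. The sum of the B genes was called in both genotypes, at -1.50 (adjusted p = 0.00824) in the wild type and -1.25 (adjusted p = 0.0192) in the mutant. Without wild-type 4 d library 1 or 2 the count was 3, and without 5 d library 2 or 3 it was 2. In the mutant 4 fell (7.93% of all genes), RBCS2B (-1.55 ± 0.41), RBCS3B (-1.08 ± 0.33), SBPASE (-0.97 ± 0.32) and RBCS1A (-0.90 ± 0.29). That count was 0, 1 and 2 without 4 d library 1, 2 or 3, and 8, 0 and 0 without 5 d library 1, 2 or 3, and 0 with only these 6 libraries in the fit. In the light no member was called by edgeR from 4 d to 5 d in the wild type (13.2% of all genes called lower) or the mutant (1.5%), with 1 and 3 members at an unadjusted p below 0.05 and 0 by DESeq2 in both. RBCS2B had the largest wild-type value, from 1738, 1463 and 1576 to 822, 820.0 and 899 (-0.91 ± 0.40, adjusted p = 0.0911), and it was called, with RBCS3B, when only those 6 libraries were fitted. Without the libraries with high KIN10, which leaves 1 mutant light library at 5 d, PRK changed by -1.99 in the mutant light.

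With glucose most of these genes were called lower in the wild type. In the wild-type dark 7 members were called lower (20.9% of all genes, 12.3% with library totals unscaled) and in the light 9 (18.3%, or 10.9%). Of all genes 22% and 18.1% were called higher with scaling, and 33.7% and 31.5% without. Among the members, unscaled totals removed the dark calls of GAPA2 (-0.70, adjusted p = 0.107) and GAPB (-0.67, adjusted p = 0.0792). They also removed the light call of RBCS2B (-0.80, adjusted p = 0.104). In the mutant none was called lower, and 5 were called higher in the dark (19.3% of all genes), or 0 to 5 with 1 library left out. In the mutant light 2 were called higher, a share near that of all genes (19.8%).

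GAPA1 read 1396, 1283 and 1664 without and 486, 268 and 501 with glucose in the wild-type dark (-1.79 ± 0.28, adjusted p = 5.91e-06). In the wild-type light it read 3765, 2631 and 2900.2 without and 997, 1038 and 938 with glucose (-1.64 ± 0.28, adjusted p = 2.08e-05). No library with glucose reached one without. In the mutant GAPA1 read 241, 179.6 and 179 without and 293, 449 and 340.2 with glucose in the dark (0.85 ± 0.28, adjusted p = 0.014), and 338, 242 and 426 and 496, 616 and 561 in the light (0.73 ± 0.28, adjusted p = 0.0309). The mutant order was thus the reverse of the wild-type one, with no overlap. RBCS1A read 7300.1, 8048 and 8279.8 in wild-type light with glucose, against the 14049 to 17288 without (-0.96 ± 0.30, adjusted p = 0.0106). RCA (-1.63 ± 0.33), RBCS3B (-1.62 ± 0.34), GAPA2 (-1.67 ± 0.38) and RBCS1B (-1.61 ± 0.49) fell by similar amounts in the wild-type light, and SBPASE missed the threshold (-0.71 ± 0.31, adjusted p = 0.0765). RBCS2B there was -1.07 ± 0.40 (adjusted p = 0.0366) and missed the threshold with any 1 of the 6 libraries left out, at -1.0 to -1.12.

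In the wild-type dark PRK (-1.39 ± 0.30), RBCS3B (-1.33 ± 0.34), RBCS2B (-1.32 ± 0.40), RCA (-1.25 ± 0.32), GAPA2 (-0.94 ± 0.37) and GAPB (-0.91 ± 0.33) were the other called genes. RBCS1A (-0.70 ± 0.29), SBPASE (-0.65 ± 0.31) and RBCS1B (-0.16 ± 0.48) were not called, while the sum of the B genes was (-1.27, adjusted p = 0.00438). Without the library labelled wild type number 2 in dark glucose, 4 members were called. In the mutant dark GAPA2 (1.07 ± 0.37), PRK (0.96 ± 0.30), GAPB (0.81 ± 0.33) and RBCS1A (0.72 ± 0.29) rose beside GAPA1. The count there was 3, 0 and 1 without mutant 4 d dark library 1, 2 or 3, and 0 without the dark glucose library labelled mutant number 2. In the mutant light SBPASE read 98.5, 69.8 and 114 without and 211, 245 and 222 with glucose (1.27 ± 0.32, adjusted p = 0.00166). Without mutant light library 2 the light count was 1, without light library 3 it was 4, and without light glucose library 2 or 3 it was 1.

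The genotypes' glucose responses differed in the interaction test, in the dark for 9 members (17.5% of all genes called higher) and in the light for all 10 (13.8%), or 10.7% and 8.52% of all genes with library totals unscaled, where 27.3% and 23.8% were called lower against 19.7% and 16% with scaling. In the dark GAPA1 (2.64 ± 0.40, adjusted p = 7.05e-06), PRK (2.36 ± 0.43) and GAPA2 (2.01 ± 0.53) led, and RBCS1B was not called (0.98 ± 0.69, adjusted p = 0.273), while the sum of the B genes was (1.85, adjusted p = 0.00407). Without both dark glucose libraries labelled number 2, 3 members were called: GAPA1 (2.22), PRK (1.98) and RBCS3B (1.68). SBPASE lost its dark call without either of them alone (1.11, adjusted p = 0.0596, without the wild-type one and 1.19, adjusted p = 0.0508, without the mutant one). In the light, which does not use those libraries, the values ran from 1.59 ± 0.42 (RBCS1A) to 2.38 ± 0.39 (GAPA1). There RBCS2B (1.74 ± 0.57, adjusted p = 0.0193) lost its call without mutant light library 2 (1.44, adjusted p = 0.0735). The 2 glucose comparisons of a genotype and the interaction share libraries with the genotype comparisons above and are not independent of them.

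**Figure D5:**
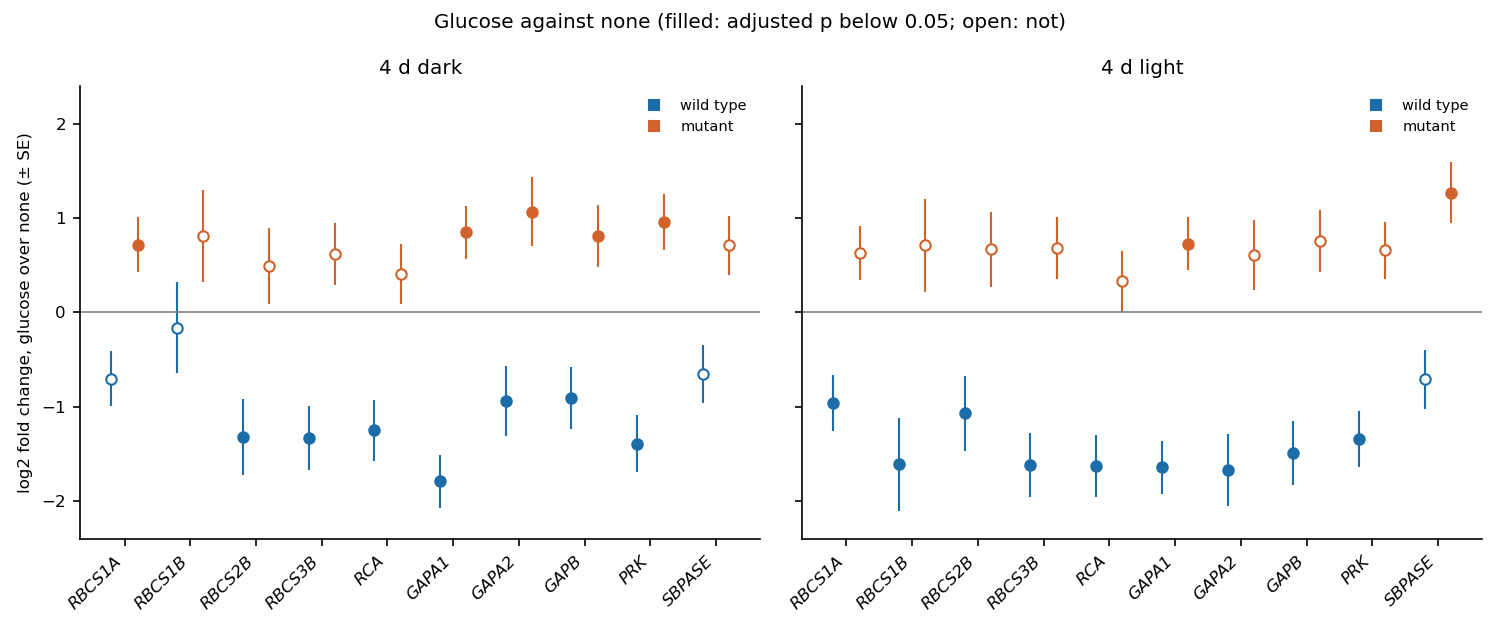
Log2 fold change of glucose over none (± SE) for the 10 genes at 4 d in the dark and in the light, wild type in blue and mutant in orange; filled points have an adjusted p below 0.05. All wild-type points lie below 0 and all mutant points above it, from -1.79 (GAPA1, dark) to 1.27 (SBPASE, light).

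On glucose the genotypes differed less. In the dark no member was called by edgeR, and none of the 22586 tested genes was (0%); 0 members had an unadjusted p below 0.05, against 360 genes lower and 172 higher, and DESeq2 called 0 genes. RBCS1A read 5869, 2719 and 5035 in the wild type and 3321, 5271 and 3364 in the mutant (-0.19 ± 0.29, adjusted p = 1), so the libraries labelled number 2 were the lowest of the wild type and the highest of the mutant. PRK showed the same order, at 297, 178 and 325 and 226, 279 and 192 (-0.20 ± 0.30). Without both libraries the values ran from -0.37 (RBCS2B) to -1.27 (GAPA2, adjusted p = 0.0439), and GAPA2 alone was called. In the light 1 member was called lower, RCA (-1.04 ± 0.32, adjusted p = 0.0377; 5.17% of all genes), which read 2372, 2513 and 2486 in the wild type and 1266, 1122 and 1207 in the mutant. All 10 lay lower in the mutant without overlap, as 17.6% of all genes did. At an unadjusted p below 0.05, 8 members were lower, as were 2867 of the 22586 tested genes. RBCS1B had the largest value (-1.42 ± 0.49, adjusted p = 0.0621) and RBCS1A the smallest (-0.59 ± 0.29, adjusted p = 0.206). RCA was not called with any 1 of the 6 libraries left out (-0.99 to -1.08, adjusted p = 0.0793 to 0.114). DESeq2 called 5 members, and 1331 of all genes lower. A fit to these 6 libraries alone called all 10, but the share of all genes in that fit is not given here. The median of the 10 was -0.86 in the light and -0.20 in the dark. The dark median includes both libraries labelled number 2, without which every value was further below 0 (-0.37 to -1.27). Shoot marker sums overlapped between genotypes on glucose, at 768 to 959 in the wild type and 769 to 924 in the mutant in the dark.

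Most other genes of the cycle were also lower in the mutant without glucose. Of 16 other tested genes of the cycle and its regulators, 9, 10 and 10 were called lower in the mutant in 3, 4 and 5 d dark, where 14.3%, 28.5% and 31.4% of all tested genes were. Another 2, 2 and 4 were called higher, no larger a share than the 17.3%, 29.5% and 29.9% of all genes. In the light 11 were lower and 2 higher at 4 d (all genes, 25.2% and 28.8%), and 12 and 3 at 5 d (26.4% and 33.4%). The median of the 16 was -0.63, -0.98 and -0.84 in the dark and -1.54 and -1.79 in the light, against -0.04 to 0.19 over all tested genes. FBA1, a chloroplast aldolase, changed by -1.71 ± 0.34 in 3 d dark and -3.31 ± 0.36 in 4 d light. CP12-2, a small protein known to bind PRK and the dehydrogenase, changed by -2.86 ± 0.45 in 3 d dark, and its relative CP12-1 by -1.39 ± 0.23 and -2.31 ± 0.23 in 4 d and 5 d dark and -2.73 ± 0.24 in 5 d light. TRXF2, a thioredoxin of the group that activates cycle enzymes in the light, changed by -1.60 ± 0.26 in 4 d dark and -2.38 ± 0.27 in 4 d light. HCEF1, the chloroplast fructose bisphosphatase, changed by -2.04 ± 0.38 in 4 d dark, TPI, triose phosphate isomerase, by -0.84 ± 0.13 in 5 d dark, and RPE, ribulose phosphate epimerase, by -1.56 ± 0.16 and -2.20 ± 0.17 in 4 d and 5 d light.

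TKL2, a transketolase isoform, went the other way in the mutant at every age without glucose, at 0.53 ± 0.16, 0.75 ± 0.17 and 0.57 ± 0.17 in the dark and 0.87 ± 0.17 and 2.05 ± 0.18 in the light. FBA3, another plastid aldolase, was called higher in 3 d dark (0.34 ± 0.13), 4 d light (0.44 ± 0.13) and 5 d light (0.57 ± 0.13). RPI3, a ribose phosphate isomerase, was higher in 4 d dark (0.56 ± 0.20) and 5 d dark (1.30 ± 0.21). TKL1 (0.76 ± 0.23) and PGK2, a phosphoglycerate kinase (0.41 ± 0.17), were higher in 5 d dark, and PGK2 in 5 d light (0.53 ± 0.17). With glucose no gene of the list was called between genotypes by edgeR in the dark, where no tested gene was. In the light 3 were lower (all genes, 5.17%), FBA1 (-1.54 ± 0.33), RPE (-0.56 ± 0.16) and CP12-2 (-1.49 ± 0.45).

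In wild-type light 10 of the 16 were called higher at 4 d (all genes, 14.4%) and none lower (13.5%). At 5 d 12 were higher (16.5%) and 2 lower, no larger a share than the 18.9% of all genes. FBA1 rose by 2.34 ± 0.34 and 3.49 ± 0.36, RPE by 1.09 ± 0.16 and 1.71 ± 0.16 and RPI3 by 1.38 ± 0.21 and 1.76 ± 0.21. TKL2 (-1.31 ± 0.18) and FBA3 (-0.39 ± 0.13) were lower at 5 d. Glucose and title series cannot be told apart in what follows. With glucose, 6 of the 16 were called lower in the wild-type dark (all genes, 20.9%) and 3 higher (22%). In the wild-type light 8 were lower (18.3%) and 3 higher (18.1%). TKL2 rose in both (1.51 ± 0.17 and 1.43 ± 0.17), as did FBA3 (0.66 ± 0.13 and 0.98 ± 0.13), with RPI3 in the dark (0.56 ± 0.20) and PGK2 in the light (0.51 ± 0.17), while TRXF2 fell in the dark (-1.14 ± 0.26) and RPE in the light (-0.92 ± 0.16). In the mutant 8 were higher with glucose in each condition (all genes, 19.3% in the dark and 19.8% in the light). In each 1 was lower, no larger a share than the 21.4% and 23.2% of all genes. TPI rose by 0.61 ± 0.13 and 1.05 ± 0.13, TKL2 by 0.87 ± 0.16 and FBA3 by 0.58 ± 0.13 in the dark, and TRXF1 by 1.47 ± 0.28 and PGK1 by 1.09 ± 0.22 in the light. CP12-3 was the gene called lower, at -1.07 ± 0.35 and -0.95 ± 0.35. The interaction with genotype was called higher for 9 in the dark (all genes, 17.5%) and 11 in the light (13.8%). It was called lower for 1 in each (all genes, 19.7% and 16%), TKL2 (-0.64 ± 0.23 and -0.72 ± 0.23). HCEF1 (1.91 ± 0.52), TRXF2 (1.35 ± 0.37) and FBA1 (1.68 ± 0.47) led in the dark, and TPI (1.13 ± 0.19), PGK1 (1.51 ± 0.30) and TRXF2 (1.69 ± 0.36) in the light.

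Of 13 tested genes for the Rubisco large subunit and for Rubisco assembly, 1, 2 and 3 were called lower in the mutant in 3, 4 and 5 d dark, with 0, 4 and 1 higher. Set against the shares of all genes given above, these dark counts were near or below the background in both directions. In the light 5 were lower at 4 d (all genes, 25.2%) and 6 at 5 d (26.4%), with 0 and 1 higher. The median of the 13 was -0.21, 0.42 and -0.26 in the dark and -0.57 and -0.98 in the light. RAF2, a Rubisco accumulation factor, changed by -0.50 ± 0.22 in 4 d dark, -1.41 ± 0.22 in 5 d dark, -1.66 ± 0.22 in 4 d light and -2.81 ± 0.23 in 5 d light. CBBY, a phosphatase that removes a Rubisco inhibitor, changed by -0.86 ± 0.32 in 3 d dark, -0.79 ± 0.33 in 4 d dark and -2.01 ± 0.34 in 4 d light. The chaperone BSD2 changed by -0.85 ± 0.28 in 5 d dark and -1.69 ± 0.29 in 5 d light. RBCX2, another Rubisco chaperone, was higher in 4 d (0.78 ± 0.21) and 5 d dark (1.13 ± 0.21) and lower in 5 d light (-1.13 ± 0.21) and in the light with glucose (-0.96 ± 0.21). RBCX1 (1.09 ± 0.28) and the chaperonin partner CPN20 (0.90 ± 0.21) were higher in 4 d dark, and the chaperonin subunit gene CPN60B2 in 5 d light (1.29 ± 0.41). In wild-type light 7 were higher at 4 d (all genes, 14.4%) and 6 at 5 d (16.5%), led by RBCX2 (1.47 ± 0.21 and 2.24 ± 0.22) and RAF2 (1.38 ± 0.22 and 2.13 ± 0.22), with CBBY at 5 d (2.33 ± 0.36). RBCL, the chloroplast gene for the large subunit, was called in none of the 29 comparisons by edgeR. A missing call does not show an unchanged level.

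Across the 42 libraries the 10 members rose and fell together, as a description without a test, since the libraries share groups and depth. Their log2 levels had pairwise Pearson r from 0.69 to 0.991, with a median of 0.939. RBCS2B followed the mean of the standardised members least (r = 0.805), and RBCS3B most (0.99). The other genes most like that mean were PSI-P (AT2G46820, 0.984), which encodes the thylakoid protein CURT1B, AT5G38520 (0.983), NdhL (AT1G70760, 0.982), a subunit of the chloroplast NADH dehydrogenase-like complex, AT2G05310 (0.981) and DRT112 (AT1G20340, 0.98), a plastocyanin gene. Those least like it were MTK (AT1G49820, -0.939), a methylthioribose kinase gene, MBD4 (AT3G63030, -0.936), a methyl-CpG-binding domain gene, and TGA3 (AT1G22070, -0.926), a bZIP transcription factor gene.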

How the data were processed

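RNA was sequenced from whole seedlings in 14 groups of 3 libraries. The authors deposited raw read counts per transcript model, made with featureCounts 1.6.2 from STAR alignments with exons grouped by parent transcript and overlapping models allowed to share a read, per the file headers. The headers name no strand or multi-mapping option, and the STAR version is not given in the sources used here. DESeq2 is named in the submitters' processing notes, but no values made with it were used. The 3 count tables hold 40745 transcript rows of 32678 genes in TAIR10 names. All 49 sample columns were mapped to the labels, 1 of them a repeat of a column in another table, and 0 columns were left unused. The 3 d dark libraries appear in both title series. Columns of the same genotype and number agreed there about as closely as counting noise allows (chi-square per degree of freedom 1.04 to 1.06 over genes with at least 50 counts, against 7.12 to 40.6 for different numbers), so they were summed and counted as 1 library.

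Each gene was represented by its longest transcript model. Counts were tested with edgeR 4.0.16 (R 4.3.3, limma 3.58.1): filterByExpr, TMM scaling, 1 model over the 14 groups and 42 libraries with 28 residual degrees of freedom, robust quasi-likelihood tests, and Benjamini-Hochberg adjustment over 22586 genes with a threshold of 0.05. The biological coefficient of variation was 21.1%. There were 23 comparisons of 2 groups and 6 interactions. The test was checked on simulated counts with known changes put into a small set of genes in 1 group. Far more genes differed between genotypes here, so that check does not cover scaling in these data. Shares of RBCS transcripts were compared with exact two-sided permutation tests. Alternatives used DESeq2 1.42.0, other scaling, filters and transcript rows, only the groups compared, a replicate block, and fits without single or doubtful libraries. Fits with library totals unscaled were added after seeing the data. The main fit held no replicate block in any comparison, and the block was used as an alternative only. Between mutant and wild type in 3 d dark, deviations of same-numbered libraries correlated at 0.139 to 0.19. The labels state no shared batch. Library totals of 4956025 to 26126836 counts limit the precision of low counts.

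Sequences and positions came from the RefSeq TAIR10.1 genome, whose nuclear sequence is that of TAIR10. Of 32678 gene identifiers 31912 matched its annotation, all 10 members among them. Sequences were handled with Biopython 1.88 and tables and plots with pandas 2.3.3, numpy 2.4.6 and matplotlib 3.10.9 in Python 3.11.15. Other genes were named by rule: up to 3 per list and comparison with the smallest adjusted p, those called against the list's majority, the 5 genes most and the 3 least like the members' mean (log2 CPM with a prior count of 2), and KIN10, KIN11 and PORA as label checks. A gene that this rule names is not reported here. The members and gene lists were chosen with earlier results of these data known.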

Additional observations from a re-analysis of the deposited data

Results flagged for a closer look

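The response to a condition differed between the genotypes, by the test of the difference in edgeR, for the genes given here (log2 values, mutant minus wild type). In the light response at 4 d the difference was -2.62 for RBCS1B. In the light response at 5 d it was -2.34 for RCA, -2.30 for RBCS1B, -2.05 for GAPB, -1.86 for GAPA2, -1.55 for RBCS1A, -1.31 for RBCS3B, -1.31 for SBPASE and -1.19 for GAPA1. In the change from 3 d to 4 d in the dark it was -1.52 for GAPA1. Adjusted p-values in these light and time responses ran from 0.000306 to 0.0362.

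In the response to glucose in the dark it was 2.64 for GAPA1, 2.36 for PRK, 2.01 for GAPA2, 1.95 for RBCS3B, 1.81 for RBCS2B, 1.73 for GAPB, 1.66 for RCA, 1.42 for RBCS1A and 1.37 for SBPASE. In the response to glucose in the light it was 2.38 for GAPA1, 2.31 for RBCS3B, 2.31 for RBCS1B, 2.28 for GAPA2, 2.25 for GAPB, 2.00 for PRK, 1.97 for SBPASE, 1.96 for RCA, 1.74 for RBCS2B and 1.59 for RBCS1A. Adjusted p-values in the glucose responses ran from 7.05e-06 to 0.0193. The dark glucose values include the libraries labelled number 2 that stood with the other genotype, and without them 3 of the 9 were called.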

How the results depend on the processing

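Of 2881 recomputed values, for members called or given a value in the text and including 52 in which the B genes were summed, 2605 kept their direction and side of the threshold, 209 lost a call, 54 gained one and 13 changed sign. Uncalled values not given in the text are outside this tally. Sign changes of uncalled values were 0.04 for RBCS1A between genotypes in dark glucose without wild-type library 1 (down to -0.45 without library 2), 0.07 for RBCS1B under glucose in the wild-type dark with unscaled totals and 0.21 without wild-type library 2 or without both number 2 libraries (down to -0.56 without library 1), and, without the libraries with high KIN10, -0.89 for RBCS1B and -1.25 for RBCS2B (from 0.82) in mutant 5 d light. The light interaction with glucose was 0.24 for GAPA2, 0.08 for GAPB, 0.11 for RBCS1A and 0.01 for SBPASE without both number 2 libraries. RBCS2B at 5 d had an interaction of -1.57 without the libraries with high KIN10 and -0.91 for the sum of the B genes, and the sum changed by 0.85 in wild-type light at 4 d. The cause was not tested.

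Counts of the 10 members called moved by over 1.5 times as follows. With DESeq2, 4 were called in mutant light at 5 d and 5 between genotypes in light glucose. With RLE scaling, 3 were called under glucose in the mutant dark, and with unscaled totals 2 in mutant light at 5 d. With transcript rows summed, 2 were called between genotypes in light glucose. With only the groups compared, counts were 0 (mutant dark, 4 d to 5 d), 2 (wild-type light, 4 d to 5 d), 5 (light interaction at 4 d), 5 (at 5 d), 3 (time interaction), 5 (glucose in mutant light) and 10 (genotypes in light glucose). With the replicate block, in fits to the groups compared, they were 8 (mutant dark, 4 d to 5 d), 2 (wild-type light, 4 d to 5 d), 5 (light interaction at 4 d), 2 (time interaction) and 10 (genotypes in light glucose). The block also gave 10 genes between genotypes in 3, 4 and 5 d dark. Same-numbered libraries of the genotypes correlated at 0.139 to 0.19 in 3 d dark, where the main fit also held no block. Elsewhere they correlated at -0.731 (genotypes in dark glucose) to 0.524 (mutant light, 4 d to 5 d). The labels state no shared batch, so a pairing is not established. Shares of all genes called in fits to the groups compared are not given here, so those counts have no background. Without the libraries with high KIN10, 1 was called in mutant light at 4 d. The count for mutant light from 4 d to 5 d then rests on 1 library at 5 d and is not given. Without both number 2 libraries of dark glucose, counts were 3 (glucose interaction), 1 (glucose in the mutant), 4 (glucose in the wild type), 1 (light in the wild type with glucose) and 1 (genotypes).

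With 1 library left out, counts ran from 2 to 8 (mutant dark, 3 d to 4 d), 0 to 1 (wild-type dark, 3 d to 4 d, and time interaction), 0 to 8 (mutant dark, 4 d to 5 d, and mutant light at 5 d), 2 to 7 (wild-type dark, 4 d to 5 d), 4 to 9 (light interaction at 5 d), 0 to 5 and 1 to 4 (glucose in mutant dark and light), 4 to 8 (glucose in wild-type dark), 1 to 6 (light in wild type with glucose) and 0 to 0 (genotypes in light glucose). In the dark between genotypes they ran from 6 to 9 at 3 d, 9 to 9 at 4 d and 8 to 10 at 5 d. The low counts of RBCS1B and SBPASE in the mutant, 3 libraries per group and reads shared among RBCS B genes limit the precision.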
